A study of Mus musculus with 24 samples.

Results

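The mitochondrial ribosomal protein genes of the cultured mouse organ of Corti (OC) are described here through their RNA levels under gentamicin and pioglitazone. They were chosen by name alone: every row of the gene table whose Entrez identifier maps to a symbol that starts with Mrpl or Mrps and a digit. There were 78 such genes among 24454 genes, 49 with an Mrpl symbol (named for the large subunit) and 29 with an Mrps symbol (named for the small subunit). OCs were dissected from wild-type C57BL/6N pups at postnatal day 5, kept in medium for 24 h and then cultured with medium alone (CTRL), 50 µM gentamicin (GM), 10 µM pioglitazone (PIO) or both together (PIO+GM). Each treatment was stopped after 6 h or 24 h, which gave 8 groups of 3 libraries, each library being made from 6 pooled OCs. Gentamicin is an aminoglycoside antibiotic that kills sensory hair cells, and pioglitazone is an agonist of the nuclear receptor PPAR-gamma. Total counts ran from 7211357 in PIO+GM at 6 h replicate 3 to 15548856 in PIO at 24 h replicate 1, and the 78 genes together took between 0.131% and 0.204% of the counts of a library.

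Mitochondria translate the few proteins encoded by their own DNA on a ribosome whose RNAs come from that DNA and whose proteins all come from nuclear genes. The mitoribosome descends from a bacterial ribosome, and aminoglycosides act on bacteria by binding the decoding site in the RNA of the small ribosomal subunit. The mitochondrial counterpart of that site has long been linked to aminoglycoside ototoxicity through the mitochondrial rRNA. The protein genes are nuclear and lay on 17 chromosomes here, and their products are imported and assembled around the rRNA with the help of GTPases, helicases and RNA-modifying enzymes. The libraries hold RNA of the whole explant: all 7 supporting cell markers, all 8 macrophage markers and all 6 Schwann cell markers were at 1 CPM (counts scaled to a common library size) or more in every library, as did 7 of 10 hair cell markers. Levels are therefore averages over all of these cells, and a lower level from fewer cells of one type cannot be told apart from less RNA per cell.

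RefSeq gives a promoter window (GRCm38.p6, 250 bases before to 50 after the start of transcription) for 69 of the 78 genes, and these windows share letters that the choice by name did not use. Shares below are of genes, and a gene with several windows (Mrpl2, Mrpl48 and Mrps16) counts once if any of them holds the letters. The sequence CCGGAAG on either strand, which the ETS family of transcription factors is known to bind, was present in 26 of 69 genes (37.7%), against 17.2% of the 12624 tested genes with a window and 12.8% of the 18170 genes of the table with one. The YY1 motif was in 5 of 69 (7.25%, against 1.98% of tested genes), and the NRF1 motif in 3 of 69 (4.35%, against 2.00%). The GC box GGGCGG was present in 49.3% of the genes and in 65.0% of tested genes. CCAAT was in 39.1% against 42.6%, the E-box CACGTG in 7.25% against 10.9%, and the PPAR response element in 0 of 69 against 0.040%. Within 60 bases before and 20 bases after the start, CCGGAAG was found for 27.5% of the mitoribosomal genes and 10.4% of tested genes. Genes that share a start region with a neighbour were also more frequent. Of the 78 genes, 19 (24.4%) started head to head within 1000 bases of another protein-coding gene, against 9.5% of the protein-coding genes tested. One such pair is Mrps12 and Sars2, the mitochondrial seryl-tRNA synthetase gene, whose starts lie 172 bases apart. These are descriptions of the sequence, and no factor's binding was measured.

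The stretches below show where the ETS letters sit in genes that the results return to, from 80 bases before to 20 bases after the start, 5′ to 3′ along the gene, with CCGGAAG in capitals. The last 2 genes, Mrps18b and Mrpl12, are shown for contrast because both were lower at 24 h in every treatment and have no match in this stretch. Mrps18b has 1 match farther on in its promoter window, 43 bases after the start, and Mrpl12 has 0.
Mrps12 (chr7:28741802-28741901, minus strand): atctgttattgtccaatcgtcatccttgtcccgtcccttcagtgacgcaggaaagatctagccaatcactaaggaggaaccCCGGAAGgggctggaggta
Mrpl3 (chr9:105053188-105053287, plus strand): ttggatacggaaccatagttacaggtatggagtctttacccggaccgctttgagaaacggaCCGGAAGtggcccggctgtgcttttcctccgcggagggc
Mrps22 (chr9:98601660-98601759, minus strand): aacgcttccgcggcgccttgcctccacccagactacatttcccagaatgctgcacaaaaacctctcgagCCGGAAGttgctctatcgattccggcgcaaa
Mrpl22 (chr11:58171584-58171683, plus strand): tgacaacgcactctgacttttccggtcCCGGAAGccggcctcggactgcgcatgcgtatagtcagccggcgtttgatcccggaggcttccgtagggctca
Mrps18a (chr17:46110924-46111023, plus strand): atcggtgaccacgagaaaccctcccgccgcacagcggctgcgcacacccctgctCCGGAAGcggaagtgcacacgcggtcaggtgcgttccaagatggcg
Mrpl58 (chr11:115403672-115403771, plus strand): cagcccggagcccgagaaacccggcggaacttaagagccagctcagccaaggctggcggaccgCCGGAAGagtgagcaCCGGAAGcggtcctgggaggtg
Mrps18b (chr17:35916421-35916520, minus strand): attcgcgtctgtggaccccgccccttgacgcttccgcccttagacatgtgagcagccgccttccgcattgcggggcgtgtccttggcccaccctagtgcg
Mrpl12 (chr11:120484557-120484656, plus strand): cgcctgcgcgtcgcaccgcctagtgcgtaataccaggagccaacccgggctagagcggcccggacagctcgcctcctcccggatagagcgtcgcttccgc
In Mrps12 the match began at base 2 of the transcript, in Mrpl3 it began 19 bases before the start and in Mrpl22 it began 53 bases before it. Mrpl58 had 2 matches.

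The mitoribosomal genes were moderately and evenly expressed. All 78 passed the filter on low counts that kept 16317 genes for testing, and 77 of them had at least 10 counts in every library. Per length, the median of their mean levels was 16.4 RPKM (reads per kilobase of the deposited gene length, scaled to library size as CPM are), with a middle range from 12.0 to 22.4, against a median of 8.81 RPKM over all tested genes. Mrpl20 (47.2 RPKM), Mrps6 (45.2), Mrpl30 (43.1), Mrpl24 (42.4) and Mrpl42 (35.4) stood highest, and the ranges of these genes over the 24 libraries overlapped, so that their order is not resolved. Mrpl35 (5.27 RPKM), Mrpl19 (5.59), Mrps36 (5.62) and Mrpl11 (6.11) were lowest but for Mrpl23, which encodes a protein near the exit of the peptide tunnel. Mrpl23 stood apart at 1.02 RPKM, with 2 to 24 counts in a library. Small and large subunit genes were alike in level, with medians of 16.0 and 17.2 RPKM. The variation between libraries of one group, given as the biological coefficient of variation, had a median of 0.140 for the 78 genes and 0.172 for the 2083 genes of like abundance.

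**Figure D1:**
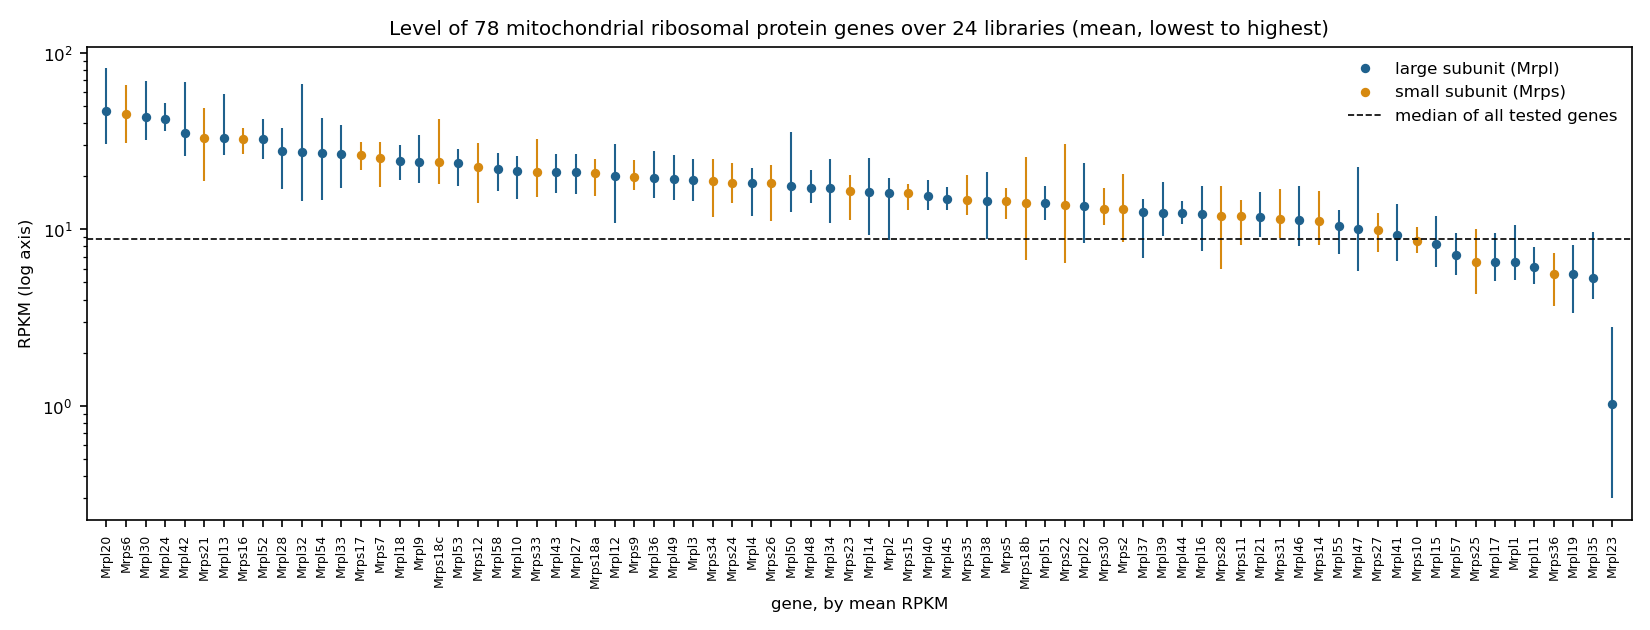
Level of each of the 78 genes on a logarithmic RPKM axis, ordered by the mean over 24 libraries (points), with vertical lines from the lowest to the highest library and a dashed line at the median of all tested genes (8.81 RPKM). Most genes lie above that line within a narrow band, and Mrpl23 lies far below the others at 1.02 RPKM.

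Some levels carry reads that other genes could also give. Of the 76-base windows of a gene's transcripts, 73.5% were also found in another gene for Mrpl53, 36.9% for Mrps34 (shared with Nme3) and 26.5% for Mrps18b (shared with Gm13552), while 49 of the 78 genes shared none. The spans of 26 of the 78 genes overlap another protein-coding gene, mostly on the opposite strand, among them Mrpl19 with Gcfc2 and Mrps25 with Nr2c2. Whether the counting used strand is not given in the sources used here, so reads of such neighbours may be included.

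Gentamicin alone left the mitoribosomal genes close to CTRL. At 6 h, 0 of 78 genes passed an adjusted p of 0.05 in edgeR's quasi-likelihood test (background 0% of all tested genes), 0 had an unadjusted p under 0.05 (1.49% of all tested genes), and DESeq2 called 0. At 24 h, 0 of 78 passed (background 0.0123%), 0 had an unadjusted p under 0.05 (1.67% of all tested genes), and DESeq2 again called 0. The median log2 fold change was 0.03 at 6 h and 0.03 at 24 h, with 44 and 50 of 78 genes higher, against 0.00 for all tested genes at either time. The data bound these differences rather than show equality: the 95% intervals of 71 of 78 genes at 6 h, and of 71 of 78 at 24 h, lay within a 1.5-fold change in either direction. These intervals do not pair libraries, although same-numbered CTRL and GM libraries deviated together at 24 h (lowest correlation 0.428). The sign of the median at 24 h rested on single libraries, as it was -0.05 without GM at 24 h replicate 3 and -0.02 without CTRL at 24 h replicate 1. At 6 h the median was 0.00 without GM at 6 h replicate 3 and 0.07 without GM at 6 h replicate 1.

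Mrps12, the counterpart of the bacterial protein whose mutations give streptomycin resistance, showed this at the level of libraries. At 6 h its CPM was 12.9, 12.9 and 14.1 in CTRL and 12.7, 13.3 and 18.2 in GM. The groups overlapped, and the log2 fold change was 0.15 with a 95% interval from -0.23 to 0.54 (n = 3 per group, edgeR adjusted p = 1.00). At 24 h it was 11.6, 17.0 and 16.1 in CTRL and 14.9, 15.4 and 18.6 in GM, for a log2 fold change of 0.13 (interval -0.26 to 0.51). Mrps5, whose bacterial counterpart also shapes decoding accuracy, was as close: 21.2, 18.6 and 22.4 CPM in CTRL and 20.9, 23.6 and 20.4 in GM at 6 h. Its log2 fold change was 0.06 at 6 h (interval -0.18 to 0.30) and 0.08 at 24 h (-0.16 to 0.32). Of the other small subunit genes described by role, Mrps7, which binds the head of the small subunit rRNA, differed by 0.01 and 0.17, and Mrps16 by -0.15 and 0.05, at 6 h and 24 h. Mrps22 and Mrps34, both mitochondria-specific, differed by -0.05 and 0.08, and by -0.05 and 0.10.

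The lowest p under gentamicin belonged to Mrps10 at 6 h (log2 fold change 0.24, SE 0.12) and to Mrpl54 at 24 h (0.31, SE 0.16), each with an edgeR adjusted p of 1.00. Mrpl23 had the widest difference at 24 h, at 0.94 with an interval from -0.18 to 2.06, at the low counts given above.

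**Figure D2:**
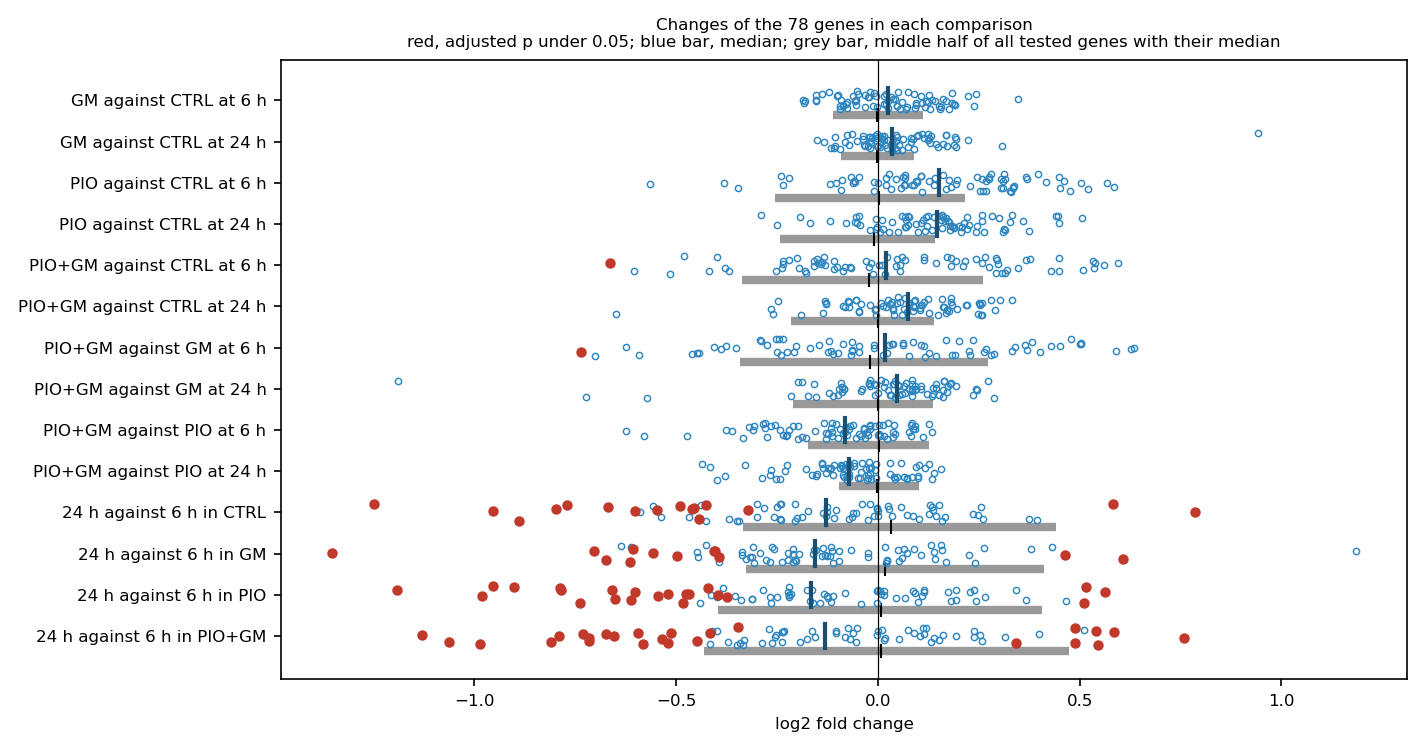
Log2 fold changes of the 78 genes (circles, red where the edgeR adjusted p is under 0.05) in the 14 comparisons of 2 groups, with their median (blue bar) and, below each row, the middle range and median of all tested genes (grey bar and tick). Red points are confined to the rows of 24 h against 6 h but for Mrpl54 in PIO+GM at 6 h, and most of them lie on the lower side.

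Under pioglitazone alone most of the genes lay slightly above CTRL, and none passed the threshold. In edgeR's test 0 of 78 were called at 6 h (background 0.337%) and 0 at 24 h (background 0.153%), while DESeq2 called 2 (2.56%, against 2.35% of all genes it tested) and 0 (against 0.993%). At an unadjusted p under 0.05, 15 genes were past the threshold at 6 h, a share of 19.2% against 15.2% of all tested genes. Of these 14 were higher (17.9%, background 8.36% for higher genes). At 24 h there were 9 (11.5% against 9.93%), and all 9 were higher (background 3.42% for higher genes). The median log2 fold change of the 78 genes was 0.15 at 6 h and 0.15 at 24 h, against 0.00 and -0.01 over all tested genes, with 61 and 63 of 78 genes higher. At 24 h the 3 PIO libraries lay above the 3 CTRL libraries for 26 of 78 genes, or 33.3%, against a background of 11.7%, and below them for 1 (background 10.6%). At 6 h these counts were 12 above (background 8.68%) and 4 below (background 6.73%). The median at 6 h was 0.07 without PIO at 6 h replicate 2. At 6 h the log2 fold changes ran against transcript GC with a Spearman rho of -0.39 across the 78 genes and of -0.39 across 15390 genes, and among the PIO libraries of 6 h the rho with GC was -0.10, -0.58 and 0.28 for replicates 1, 2 and 3. The 84 tested genes of cytosolic ribosomal proteins had medians of 0.10 and 0.19 in the same comparisons.

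Mrpl49, a mitochondria-specific large subunit protein, had the lowest p at either time (chr19:6053630-6057755). Its CPM in CTRL was 29.6, 31.7 and 33.1 at 6 h and 25.5, 26.7 and 27.7 at 24 h. In PIO it was 42.4, 45.4 and 38.3 at 6 h and 36.5, 33.6 and 33.3 at 24 h. The PIO libraries were above the CTRL libraries at either time, by a log2 fold change of 0.42 (SE 0.11, edgeR adjusted p = 0.0986) and 0.37 (SE 0.11, adjusted p = 0.211). In DESeq2 the adjusted p for Mrpl49 at 6 h was 0.0261. Mrpl35 was higher by 0.58 at 6 h (SE 0.17, adjusted p = 0.128), with 22.5, 35.6 and 20.7 CPM in PIO against 15.4, 20.0 and 17.0 in CTRL. Without PIO at 6 h replicate 2, the library that stood highest, Mrpl35 was at 0.31 (adjusted p = 0.370). Mrps11 (0.44), Mrpl34 (0.45), Mrps26 (0.51) and Mrps23 (0.36) had the next lowest p at 24 h, and none of them passed the threshold. Against this direction, Mrpl54 had a log2 fold change of -0.56 at 6 h (SE 0.17, adjusted p = 0.129), and of -0.32 with the GC trend removed (adjusted p = 0.459).

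Mrpl54, which encodes a mitochondria-specific protein of the large subunit (chr10:81264722-81266926), was the one mitoribosomal gene that edgeR called for any drug. Its CPM at 6 h was 17.3, 16.2 and 16.0 in CTRL, 17.2, 15.0 and 19.9 in GM, 10.9, 9.32 and 13.2 in PIO, and 11.7, 8.67 and 10.9 in PIO+GM. All 6 libraries with pioglitazone were below all 6 without it. In PIO+GM it was lower than in CTRL by a log2 fold change of -0.66 (SE 0.17, edgeR adjusted p = 0.0421) and lower than in GM by -0.74 (SE 0.17, adjusted p = 0.0388). These are 1 of 78 genes in each comparison, 1.28%, against backgrounds of 2.64% and 1.32% of all tested genes, so the share called was not above that of all tested genes. At an unadjusted p under 0.05 there were 17 and 21 genes (backgrounds 23.6% and 25.0%), and DESeq2 called 5 and 5, or 6.41% in each, against 7.89% and 8.09% of all genes it tested. At 24 h Mrpl54 had 20.9, 21.6 and 25.2 CPM in GM and 14.2, 14.8 and 16.5 in PIO+GM, without overlap, at -0.57 (SE 0.16, adjusted p = 0.263). The separation of libraries with and without pioglitazone did not hold at 24 h, as PIO and CTRL overlapped (log2 fold change -0.19, SE 0.16). GM stood above CTRL by 0.31 at that time, without overlap.

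Both calls moved with the base composition of transcripts. Mrpl54 has the most GC-rich transcript of the 78 genes, at 60.4% against a median of 49.8%. Across the 78 genes the log2 fold change of PIO+GM against GM at 6 h ran against transcript GC with a Spearman rho of -0.67, and across 15390 genes with a rho of -0.62, in libraries that all genes share. With the GC trend of each library removed, Mrpl54 was at -0.16 against CTRL (adjusted p = 0.748) and -0.19 against GM (adjusted p = 0.704). The trend was carried by replicates 2 and 3 of PIO+GM at 6 h, whose rho with GC was -0.49 and -0.68, while replicate 1 had 0.02. The call of Mrpl54 was lost without any 1 library of CTRL (adjusted p up to 0.144) or of GM, and without PIO+GM at 6 h replicate 2 or replicate 3. Without replicate 1, 16 genes were called against CTRL and 20 against GM, shares of 20.5% and 25.6%, against 21.5% and 24.4% of all genes in the same fits. Without replicate 2 or without replicate 3 there were 0 in either comparison, with 0.187% and 0.237% of all genes called against CTRL and 0.0241% and 0.0364% against GM. Under library sizes without TMM factors the single call against CTRL was Mrps25, higher by 0.48 (adjusted p = 0.0469), in place of Mrpl54.

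Mrps28, a small subunit protein (chr3:8802146-8923857), followed a similar course without passing the threshold. At 24 h it had 7.65, 9.45 and 9.95 CPM in CTRL, 7.61, 9.59 and 11.3 in GM, 8.42, 6.90 and 7.44 in PIO, and 6.95, 4.32 and 5.97 in PIO+GM. The PIO+GM libraries were the lowest group and did not overlap with CTRL or GM. The log2 fold change was -0.72 against GM (SE 0.19, edgeR adjusted p = 0.217) and -0.65 against CTRL (SE 0.19, adjusted p = 0.159). At 6 h it was -0.70 against GM (SE 0.19, adjusted p = 0.0640). The transcript of Mrps28 has 54.4% GC, above the median of 49.8%. Across the 78 genes the rho with GC for PIO+GM against GM was -0.67 at 6 h and -0.36 at 24 h. For PIO+GM against CTRL at 24 h it was -0.12.

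In the remaining comparisons of the combined treatment no mitoribosomal gene was called. PIO+GM against CTRL at 24 h gave 0 of 78 in edgeR (background 0.478%) and 3 at an unadjusted p under 0.05 (background 9.05%). PIO+GM against GM at 24 h gave 0 (background 0.110%) and 5 (background 7.47%). PIO+GM against PIO gave 0 at 6 h (background 0%) and 0 at 24 h (background 0.0735%), with 6 and 2 at an unadjusted p under 0.05, all of them lower (backgrounds 3.06% and 2.59%, and 1.89% and 0.748% for lower genes). DESeq2 called 0 in these 4 comparisons. Adding gentamicin to pioglitazone had a median log2 fold change of -0.08 at 6 h and -0.07 at 24 h over the 78 genes, with 57 and 59 genes lower, against 0.00 over all tested genes. These medians moved with single libraries. At 6 h the median was -0.03 without PIO replicate 2, -0.05 without PIO+GM replicate 1 and -0.14 without PIO replicate 3. At 24 h it was -0.02 without PIO+GM replicate 2, -0.04 without PIO replicate 1 or replicate 3, and -0.12 without PIO+GM replicate 3. Mrps12 had the lowest p at 6 h: its CPM was 17.3, 13.0 and 21.1 in PIO and 12.5, 9.71 and 11.2 in PIO+GM, which did not overlap. The log2 fold change was -0.62 (SE 0.19, edgeR adjusted p = 0.998). Changes in PIO+GM against PIO ran against transcript GC, with a Spearman rho of -0.57 at 6 h and -0.46 at 24 h across the 78 genes. Across 15390 genes the rho was -0.46 and -0.33. The transcript of Mrps12 has 56.5% GC, against a median of 49.8% for the 78 genes.

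The 5 differences of effects were tested directly, and edgeR and DESeq2 called 0 of 78 genes in each (background 0% in all 5). These were the effect of pioglitazone with minus without gentamicin at either time, and the effects of GM, PIO and PIO+GM at 24 h minus 6 h. At an unadjusted p under 0.05 they held 5, 2, 0, 2 and 3 genes (backgrounds 1.80%, 1.21%, 0.766%, 4.38% and 5.99%). The lowest p was that of Mrps12, for which the effect of pioglitazone at 6 h differed with gentamicin from that without it by -0.78 on the log2 scale (SE 0.26, edgeR adjusted p = 1.00). This difference of effects at 6 h ran against transcript GC with a rho of -0.52 across the 78 genes and of -0.41 across 15390 genes.

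**Figure D3:**
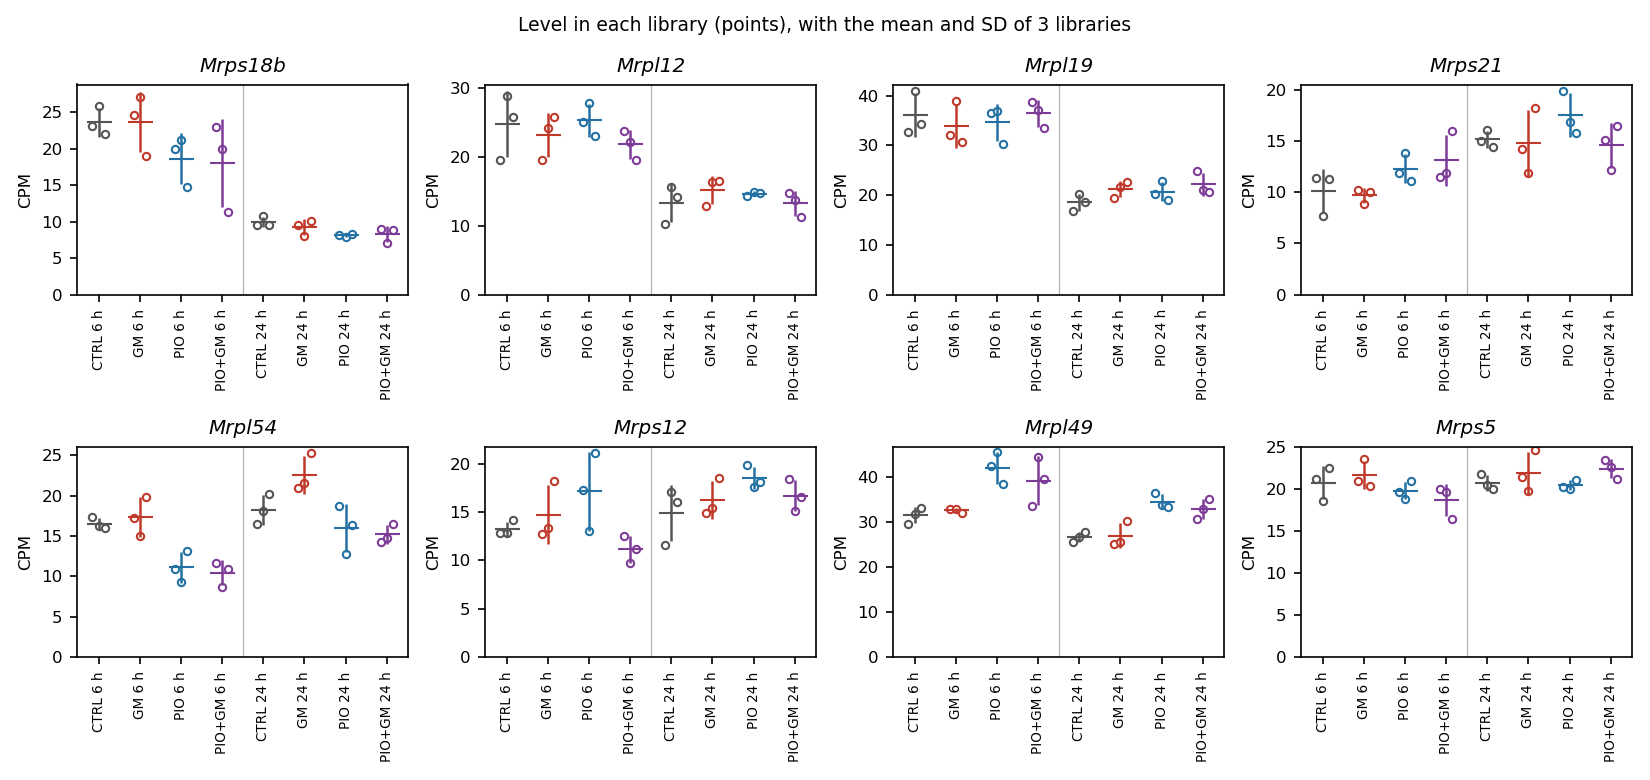
Level in CPM in each library (points) with the mean and SD of 3 libraries for 8 of the genes, the 6 h groups on the left and the 24 h groups on the right of each panel. Mrps18b, Mrpl12 and Mrpl19 are lower in all 24 h groups, Mrpl54 is lower in PIO and PIO+GM at 6 h, and Mrps5 is level throughout.

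Time in culture changed more of the genes than either drug, and mostly downward. Between 6 h and 24 h, edgeR called 16 of 78 genes in CTRL (20.5%, background 28.0%), 12 in GM (15.4%, background 24.2%), 22 in PIO (28.2%, background 29.0%) and 25 in PIO+GM (32.1%, background 34.6%). The direction was unequal. Lower genes numbered 14, 10, 19 and 18 (17.9%, 12.8%, 24.4% and 23.1%), against backgrounds of 13.2%, 11.7%, 15.8% and 17.0%. Higher genes numbered 2, 2, 3 and 7 (2.56%, 2.56%, 3.85% and 8.97%), against backgrounds of 14.8%, 12.5%, 13.2% and 17.6%. The median log2 fold change of the 78 genes was -0.13, -0.16, -0.17 and -0.13, against medians from 0.01 to 0.03 over all tested genes. It was -0.06 in CTRL without CTRL at 24 h replicate 1, -0.26 in GM without GM at 24 h replicate 3 and -0.10 in PIO without PIO at 6 h replicate 2. The counts depended on single libraries as well. They were 9 in CTRL without CTRL at 6 h replicate 2, 5 in GM without GM at 6 h replicate 2, 9 in PIO without PIO at 6 h replicate 2 and 9 in PIO+GM without PIO+GM at 6 h replicate 2. Those shares of 11.5%, 6.41%, 11.5% and 11.5% stood beside 16.1%, 13.0%, 16.3% and 20.8% of all genes in the same fits. On which side of the background the share lay was not stable: 33 genes (42.3%, against 36.6% of all genes) were called in PIO+GM without PIO+GM at 6 h replicate 1, and 17 (21.8%, against 19.4%) in PIO without PIO at 24 h replicate 1. With DESeq2 the shares were 34.6% in PIO (against 32.9%) and 41.0% in PIO+GM (against 37.9%). Each treatment has its own libraries at each time, and whether the time course differed between treatments was tested only through the differences of effects above, each against CTRL.

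Over the 4 treatments, 33 of 78 genes were called at least once (42.3%, background 48.6%) and 45 never. No gene was called in opposite directions. Lower in all 4 were 6 genes (7.69%, background 7.24%), lower in 3 were 3 (background 3.06%), and lower in 2 were 12 (15.4%, background 5.90%). Higher in all 4 were 0 (background 6.97%), and higher in 3 were 2 (background 3.54%). The 12 libraries of 24 h lay below the 12 of 6 h for 8 of 78 genes (10.3%, background 6.37%) and above them for 0 (background 5.99%).

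Mrps18b, one of the mitochondrial relatives of bacterial S18 (chr17:35910380-35916440), had the lowest log2 fold change of the called genes in each treatment. At 6 h it had 23.1, 25.8 and 22.0 CPM in CTRL, 24.6, 27.1 and 19.0 in GM, 20.0, 21.2 and 14.7 in PIO, and 23.0, 19.9 and 11.3 in PIO+GM. At 24 h it had 9.58, 10.7 and 9.52 in CTRL, 9.59, 8.04 and 10.1 in GM, 8.10, 7.94 and 8.37 in PIO, and 8.94, 7.04 and 8.91 in PIO+GM. Every library of 24 h was below every library of 6 h, and the closest was PIO+GM at 6 h replicate 3. The log2 fold change was -1.25 in CTRL (SE 0.21, edgeR adjusted p = 0.000246), -1.35 in GM, -1.19 in PIO and -1.13 in PIO+GM, and each stayed past the threshold under all 15 alternative settings, left-out libraries included. The other relatives of S18, Mrps18a and Mrps18c, were not called in any comparison.

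The second such gene was Mrpl19, a large subunit protein with a bacterial counterpart (chr6:81957826-81965949). It ran from 30.2 to 41.0 CPM over the 12 libraries of 6 h, with a median of 35.5, and from 16.8 to 24.9 over those of 24 h, with a median of 20.4. Its log2 fold change was -0.95 in CTRL (SE 0.13, edgeR adjusted p = 5.5e-05), -0.67 in GM, -0.74 in PIO and -0.72 in PIO+GM, each past the threshold under all 15 alternative settings. Mrpl12, which forms the flexible stalk that recruits translation factors (chr11:120484637-120488754), ran from 19.5 to 28.9 CPM at 6 h and from 10.3 to 16.5 at 24 h, again without overlap. Its log2 fold change was -0.89 in CTRL (SE 0.17, adjusted p = 0.000913), -0.61 in GM, -0.79 in PIO and -0.72 in PIO+GM. The call of Mrpl12 in GM was lost without GM at 6 h replicate 2, GM at 6 h replicate 3 or GM at 24 h replicate 1, with an adjusted p of up to 0.0770.

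Mrpl15, Mrpl17 and Mrps25 completed the 6 genes called lower in every treatment. Mrpl15 and Mrpl17, both with bacterial counterparts in the large subunit, had log2 fold changes from -0.67 to -0.45 and from -0.60 to -0.35. Mrps25, mitochondria-specific, had a median of 44.3 CPM at 6 h and 31.8 at 24 h, with log2 fold changes from -0.65 to -0.46. Its call in CTRL was lost without CTRL at 6 h replicate 2 or CTRL at 24 h replicate 1 (adjusted p up to 0.0623). With the GC trend removed the call of Mrpl17 was lost in PIO (adjusted p = 0.133) and PIO+GM (0.350), and that of Mrpl15 in PIO (0.257). Mrpl17 was also lost in GM without GM at 6 h replicate 2 or GM at 24 h replicate 1, in PIO without PIO at 24 h replicate 2, and in PIO+GM without PIO+GM at 6 h replicate 2, at 24 h replicate 1 or at 24 h replicate 2. Mrps22, Mrps2 and Mrpl3 were lower in 3 treatments. Mrpl3, which reaches toward the peptidyl transferase centre, differed by -0.44 in CTRL, -0.38 in PIO and -0.42 in PIO+GM. The calls of Mrpl3 in PIO and PIO+GM were lost with the GC trend removed, and all of its calls were lost when any of several single libraries was left out, as was that of Mrps22 in CTRL. Lower in PIO and PIO+GM but not called in CTRL or GM were Mrpl47, Mrpl32, Mrpl50, Mrpl20, Mrpl22, Mrpl42, Mrpl41 and Mrpl35. In PIO each of these 8 calls was lost without PIO at 6 h replicate 2, and in PIO+GM all but those of Mrpl20 and Mrpl47 were lost without PIO+GM at 6 h replicate 2. The call of Mrpl47 in PIO+GM was lost without PIO+GM at 24 h replicate 1. In the differences of effects above, which set the time course in PIO and in PIO+GM against that in CTRL, none of the 78 genes passed the threshold, and the same difference against GM was not tested.

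**Figure D4:**
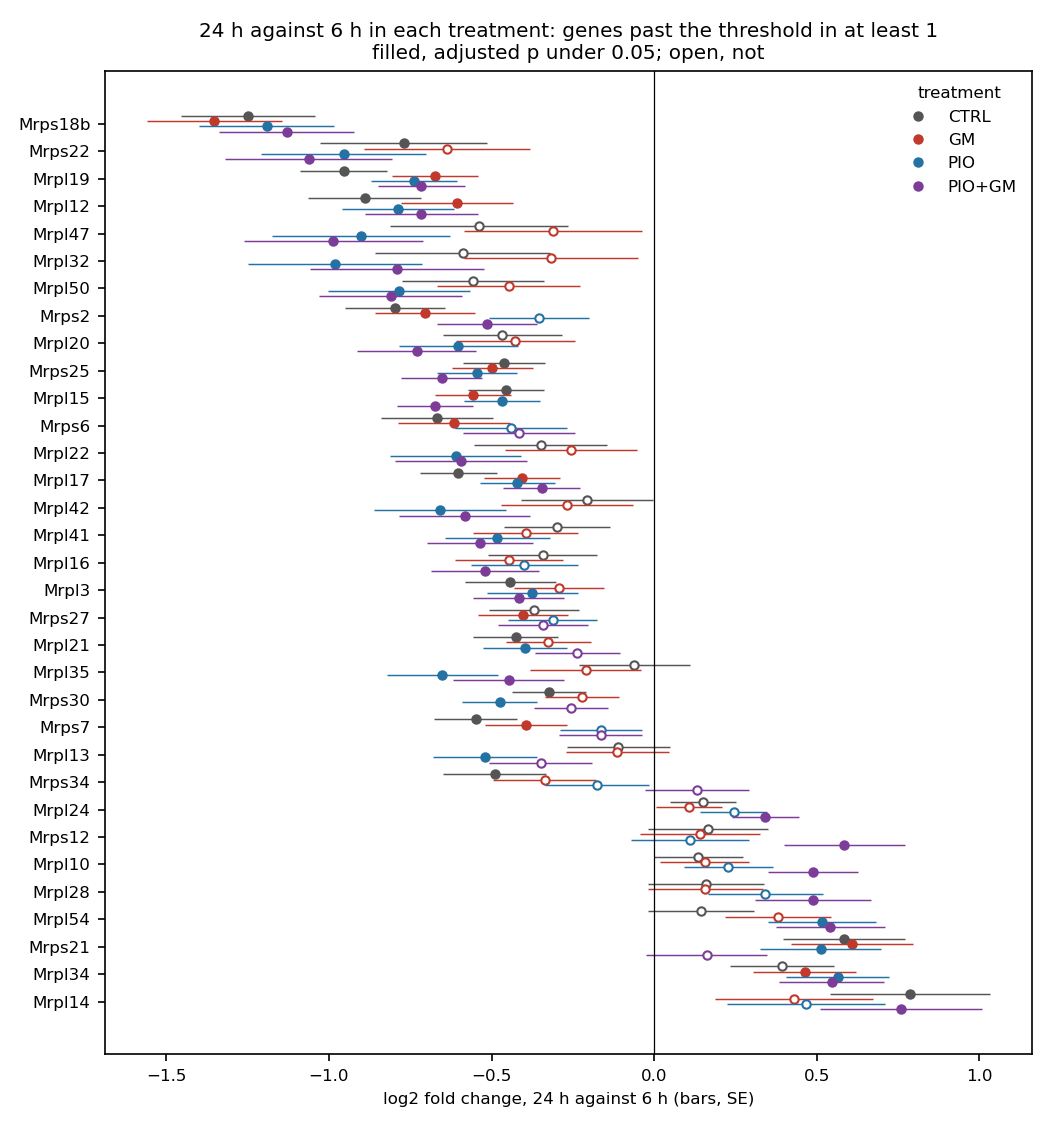
Log2 fold change of 24 h against 6 h with its SE (bars) in each of the 4 treatments for the 33 genes called in at least 1 of them, filled where the edgeR adjusted p is under 0.05. The 6 genes filled in all 4 treatments are all lower at 24 h, from Mrps18b (-1.13 to -1.35) to Mrpl17 (-0.35 to -0.60).

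Few genes rose. Mrps21, the counterpart of bacterial S21, had 11.4, 7.67 and 11.3 CPM in CTRL at 6 h and 15.0, 16.1 and 14.4 at 24 h, without overlap, for a log2 fold change of 0.58 (SE 0.19, edgeR adjusted p = 0.0259). It was also higher in GM (0.61) and PIO (0.51), and was at 0.16 in PIO+GM, where it was not called. Mrpl34 was higher in GM (0.46), PIO (0.56) and PIO+GM (0.55), Mrpl14 in CTRL (0.79) and PIO+GM (0.76), and Mrpl54 in PIO (0.52) and PIO+GM (0.54). Mrps12, Mrpl10, which anchors the stalk, Mrpl24 and Mrpl28 were called higher in PIO+GM and in no other treatment, at 0.58, 0.49, 0.34 and 0.49. With the GC trend removed, the calls of Mrpl54 and Mrpl34 were lost in each treatment that had them, that of Mrps21 in CTRL and PIO, and those of Mrps12, Mrpl14 and Mrpl28 in PIO+GM, so that no higher call was left in PIO. The calls of all 7 genes called higher in PIO+GM were lost without PIO+GM at 6 h replicate 2. In CTRL, GM and PIO the log2 fold changes of Mrps12, Mrpl10, Mrpl24 and Mrpl28 lay between 0.11 and 0.34, and no difference of effects was called. Of the genes described by role, Mrpl11, Mrpl44, Mrpl45, Mrpl58, Mrps5, Mrps16 and Mrps36 were called in no comparison. Mrpl58 encodes a peptidyl-tRNA hydrolase that frees stalled mitoribosomes, Mrpl45 faces the inner membrane, and the product of Mrps36 is also known as a subunit of the oxoglutarate dehydrogenase complex.

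Other measures moved with time as well, and their part in these differences was not tested. The summed level of the 8 macrophage markers ran from 46.8 to 116 CPM at 6 h and from 60.4 to 202 at 24 h, and that of the 5 cell cycle markers from 46.3 to 117 and from 80.8 to 247. The 10 hair cell markers summed to between 489 and 834 CPM at 6 h and between 572 and 1030 at 24 h. The sums of the Schwann cell and neuron markers were lower at the later time, as most of the called genes were, with ranges that overlapped. The 6 Schwann cell markers ran from 363 to 2602 CPM (median 1250.4) at 6 h and from 337 to 854 (median 479) at 24 h, and the 5 neuron markers from 49.1 to 280.3 (median 155) and from 29.6 to 173 (median 57.1). The 7 supporting cell markers ran from 1679 to 5703 CPM at 6 h and from 2789 to 4750.2 at 24 h. The log2 fold changes of the 78 genes followed transcript GC with a rho of 0.50 in PIO and 0.53 in PIO+GM, but of 0.15 in CTRL and 0.19 in GM. With the GC trend removed the calls were 1 higher and 20 lower in CTRL, 1 and 16 in GM, 0 and 24 in PIO, and 3 and 23 in PIO+GM. In the same fits 16.8%, 15.1%, 14.4% and 16.5% of all tested genes were called higher, and 19.0%, 17.0%, 17.6% and 18.9% lower.

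The ETS letters were about as frequent among genes that changed with time as among the others, while the GC box was less frequent among genes that changed in either direction. CCGGAAG was present in 7 of 21 genes called lower at least once (33.3%), in 3 of 7 of those called higher (42.9%) and in 16 of 41 of those called in none (39.0%). GGGCGG was in 7 of 21 (33.3%), 2 of 7 (28.6%) and 25 of 41 (61.0%), and these groups are small. The windows of Mrpl3, Mrps22 and Mrpl22 printed above are among the lower genes with the ETS letters, and those of Mrps18b and Mrpl12 among those without them in the printed stretch. Mrps18b has its match past that stretch, 43 bases after the start, and is counted among the 7 lower genes with CCGGAAG.

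**Figure D5:**
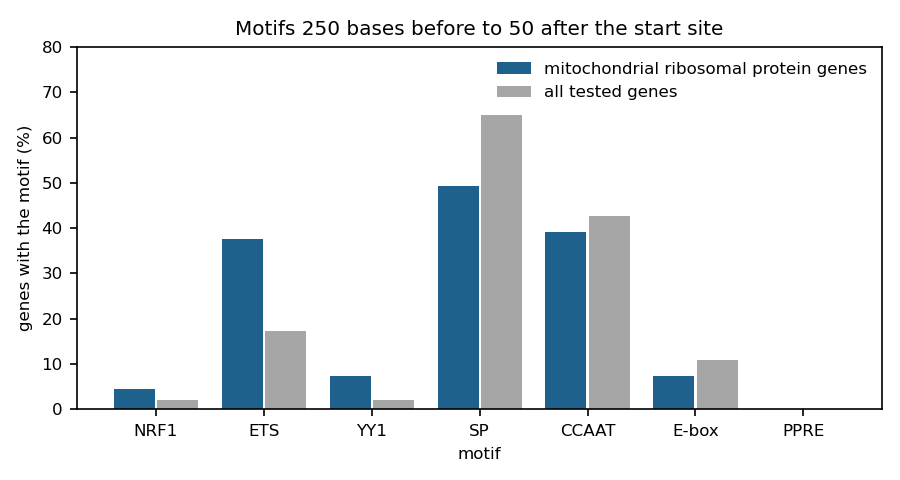
Percentage of genes with each motif on either strand in the window from 250 bases before to 50 bases after the start, for the 69 mitoribosomal genes with a window (blue) and the 12624 tested genes with one (grey). The ETS letters are at 37.7% against 17.2%, and the SP letters (GGGCGG) at 49.3% against 65.0%.

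The machinery around the mitoribosome was read from lists of its other parts. Of the 5 further ribosomal subunits, the 16 translation factors and the 25 assembly factors, 0 were called in any drug comparison. Of the 17 mitochondrial tRNA ligases 1 was (background 1.32%), Nars2, higher in PIO+GM than in GM at 6 h by 0.48 (SE 0.12, edgeR adjusted p = 0.0490). The call of Nars2 was lost with the GC trend removed (0.29, adjusted p = 0.167). It was lost without any 1 library of GM at 6 h or replicate 2 or 3 of PIO+GM at 6 h (adjusted p up to 0.239), at log2 fold changes of 0.43 to 0.51. It was also lost without TMM factors (adjusted p = 0.0532), without a filter (0.0952) and in the libraries of 6 h only (0.319), at log2 fold changes of 0.46 to 0.47. The call was kept with the replicate block (adjusted p = 0.0172), in DESeq2 (0.00490), in the likelihood ratio test (0.0319) and under a minimum of 10 counts (0.0350). It was also kept with DESeq2 size factors (0.0457), and lost with block and GC trend removal (0.104). Time in culture again moved more, and the counts that follow stand beside the 28.0%, 24.2%, 29.0% and 34.6% of all tested genes called in CTRL, GM, PIO and PIO+GM. Of all tested genes 13.2%, 11.7%, 15.8% and 17.0% were called lower, and 7.24% were lower in all 4 treatments. The genes named for time were picked from those called and do not describe a list as a whole. Of the translation factors 4, 3, 3 and 4 were called between 6 h and 24 h in CTRL, GM, PIO and PIO+GM, of which 2, 2, 3 and 3 were lower. Lrpprc, which stabilises mitochondrial messenger RNAs, was lower in all 4 treatments, by -0.87 (SE 0.09), -0.79, -0.66 and -0.80, and so was the elongation factor Gfm1, from -0.39 to -0.29. Guf1, which acts on stalled ribosomes, was higher in CTRL (0.68), GM (0.65) and PIO+GM (0.51).

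Among the assembly factors 5, 5, 7 and 11 were called, 4, 4, 6 and 6 of them lower. The GTPase Noa1 was lower in all 4 treatments (-0.84, -0.80, -0.48 and -0.61), as were the rRNA methyltransferase Mrm3 (-1.13 to -0.84) and Rcc1l (-0.99 to -0.53). Ybey, an RNA-processing factor, was higher in GM (0.49) and PIO+GM (0.63). Of the tRNA ligases 5, 4, 5 and 6 were called, with 3 lower in each treatment. Mars2 (-1.32 to -0.96), Yars2 (-1.15 to -0.76) and Nars2 (-0.64 to -0.36) were lower in all 4. Ptcd3, a small subunit protein without an Mrp symbol, was lower in CTRL, PIO and PIO+GM by -0.77, -0.73 and -0.86. The 84 cytosolic ribosomal protein genes had 5, 3, 9 and 10 calls, with 5, 2, 2 and 4 lower.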

How the data were processed

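The study sequenced total RNA, depleted of rRNA, with a stranded kit and single 76-base reads. Per the study's methods the authors aligned reads with STAR, which the submitters' processing notes also name beside mm10, and deposited whole-number counts per Entrez gene of reads starting in any RefSeq exon, with a gene length in bases (other). The deposited counts were analysed here in R 4.3.3 with edgeR 4.0.16: filterByExpr, TMM scaling, 1 mean per group over all 24 libraries, quasi-likelihood tests, and Benjamini-Hochberg adjustment over 16317 genes at 0.05. SE is the log2 fold change over the root of F. RPKM used the deposited length and TMM-scaled library sizes. DESeq2 1.42.0 was an alternative, beside other scalings, filters, tests, a replicate block, GC-trend removal and leaving out each library. In data simulated for GM against CTRL at 24 h (16047 genes), the fit recovered 50% of 96 genes changed by 1 on the log2 scale and 88% of 100 changed by 2, with 6 false calls. Per the study's methods OCs were kept in separate wells and each treatment was run in triplicate. Whether the triplicates were of separate litters or days is not given in the sources used here, and p-values measure the spread between these libraries.

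Promoter windows are RefSeq's for GRCm38.p6, and transcript GC, shared 76-base windows and gene spans come from GENCODE annotation of the same build. The genes, lists and motifs were chosen with earlier results of these data known. Named genes were drawn from those called in any comparison, those with the lowest p in each direction (at most 2), genes fixed by role, the 5 highest and 5 lowest levels, and up to 5 called genes per related list. Not every gene called between 6 h and 24 h is named. Others named in PIO against CTRL and in time were chosen after their values were seen. Same-numbered libraries deviated together in every pair, with correlations over 0.1, for GM against CTRL (lowest 0.428), PIO against CTRL (0.107) and PIO+GM against PIO (0.311) at 24 h, and the block left 0 of 78 genes called in these. One gene of the related lists is not reported here.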

Additional observations from a re-analysis of the deposited data

How the results depend on the processing

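The counts of mitoribosomal genes called for GM against CTRL, for PIO+GM against PIO, for all 24 h drug comparisons but one and for the 5 differences of effects were 0 under every setting run. PIO against CTRL at 6 h, with 0 called, had 2 under DESeq2, 3 with the replicate block, 1 with the GC trend removed and 6 with both, shares of 2.56%, 3.85%, 1.28% and 7.69% beside 2.35%, 2.27%, 1.23% and 5.12% of all genes in the same fits. At 24 h it had 1 with both (1.28%, beside 3.45%). PIO+GM against CTRL at 6 h, with 1 called, had 2 under a minimum of 10 counts, 0 without a filter, 2 under the likelihood ratio test, 5 under DESeq2, 4 with the block, 0 with the GC trend removed and 0 from the libraries of 6 h only (in this order 4.35%, 0.652%, 4.83%, 7.89%, 9.46%, 1.59% and 0.0127% of all genes). PIO+GM against GM at 6 h, with 1 called, had 0, 2, 5, 5, 0 and 0 for the last 6 of these settings, and 0 with block and GC trend removal (0.310%, 4.11%, 8.09%, 12.2%, 0.760%, 0% and 4.54% of all genes). The causes were not tested. Leaving out a library gave 0 to 16 and 0 to 20 in these last comparisons (16 and 20 without PIO+GM at 6 h replicate 1). Between 6 h and 24 h, the other settings stayed within 1.5 times the count, and leaving out a library gave 9 to 15 in CTRL (9 without CTRL at 6 h replicate 2, 10 without CTRL at 24 h replicate 1), 5 to 14 in GM (5 and 7 without GM at 6 h replicate 2 and at 24 h replicate 1), 9 to 27 in PIO (9 and 12 without PIO at 6 h replicate 2 and at 24 h replicate 2) and 9 to 33 in PIO+GM (9, 14 and 16 without PIO+GM at 6 h replicate 2, at 24 h replicate 1 and at 24 h replicate 3). Mrpl30 in PIO+GM against PIO at 6 h ran from -0.0403 without PIO+GM at 6 h replicate 3, the reverse of its direction, to 0.363 without PIO at 6 h replicate 2. Among the comparisons run, replicate numbers met the pairing rule only for the 24 h ones given with the processing. GM and PIO at 6 h, which were not compared with each other, also met it (lowest correlation 0.185). With 3 libraries per group an exact permutation test of 1 gene cannot go below p = 0.1.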
